A study of Mus musculus with 4 samples.

Results

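The genes described here mark the oligodendrocyte lineage, the cells that later make myelin, in the stages before myelin is laid down. They were chosen by name as 10 genes, read in order from progenitor to newly formed oligodendrocyte, and every probe carrying one of these names was taken. Symbols are written as on the array. This gave 13 of the 45281 probes on the chip, for 10 of its 30854 gene symbols, with a pair of probes each for PDGFRA, ENPP6 and UGT8A and a single probe for each of the others. RNA was measured from the anterior and the posterior cerebellar lobes of untreated Swiss mice at postnatal day 7 (PN7), with 2 samples per lobe and 1 Illumina MouseWG-6 array per sample. The lobes were dissected by hand and hold all their cell types, so a signal is that of the whole tissue. Nothing in the labels says whether the samples of a lobe, or the anterior and posterior samples with the same number, came from the same animals, so the p-values measure only the spread between these samples.

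Oligodendrocytes of the cerebellum arise from progenitors that carry the growth factor receptor PDGFRA and the surface proteoglycan CSPG4, also known as NG2. The transcription factors OLIG1, OLIG2 and SOX10 are used along the whole lineage. As a progenitor commits to differentiate it loses PDGFRA and passes through a stage marked by the receptor GPR17, and the newly formed oligodendrocyte then makes BCAS1, ENPP6 and UGT8A before it wraps axons. At PN7 the cerebellum holds progenitors, committed cells and early myelinating cells side by side.

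Signals are given as log2 of the quantile-normalized intensity, and differences are posterior minus anterior on that scale. A probe counted as detected on an array when fewer than 5% of the negative controls matched or exceeded its brightness, which is a detection p-value under 0.05. Testing was by limma over the 21726 probes detected on 2 or more arrays, with Benjamini-Hochberg adjustment across that whole set. Of these probes, 1802 (8.29%) passed the criterion of the study, a difference over 1.2-fold with an unadjusted p under 0.05, with 716 (3.30%) higher and 1086 (5.00%) lower in the posterior lobes, a share of 39.7% higher. When each array was instead shifted to a common 75th percentile, 977 were higher and 850 lower, a share of 53.5% higher. An adjusted p under 0.05 was reached by 23 probes (0.106%), 7 of them (0.0322%) lower. The 2 arrays of one lobe lay entirely on one side of those of the other for 42.6% of the tested probes. Between 46.5% and 47.6% of all probes were detected on an array, and the probes described here were read from 21 to 64 beads each, with a standard error of the bead mean of 1.94% to 5.02% on those tested. Of the genes that mark cerebellar neurons and glia, PCP2, NEUROD1, PAX6, DCX, GDF10 and SLC1A3 were detected, while the probes of ATOH1 and CALB1 were not detected on any array.

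Of the 10 genes, 9 had a tested probe, and 10 of the 13 probes were tested. By the criterion of the study 1 probe, of PDGFRA, was higher in the posterior lobes, beside 3.30% of all tested probes. Lower were 3 probes of SOX10 and UGT8A, beside 5.00% of all tested probes, while CSPG4, OLIG1, GPR17, MYT1, BCAS1 and ENPP6 did not pass the criterion. Among these 3, 1 probe of UGT8A was tested only through its detection on the anterior arrays, which favours a lower posterior value. With detection required on all 4 arrays, 9 probes were tested, and 1 passed as higher and 2 as lower. After adjustment over all tested probes UGT8A alone remained, on one of its probes, beside 0.106% of all tested probes. The 10 differences ran from -0.86 to 0.47 with a median of -0.24, beside a median of 0.00 over all tested probes, with 2 above and 8 below 0. For 8 of the 10 probes, both probes of UGT8A among them, the arrays of the lobes did not overlap, beside 42.6% of all tested probes. Leaving out anterior replicate 1 moved the median to -0.13 and leaving out anterior replicate 2 moved it to -0.34. Leaving out a posterior array gave -0.30 for replicate 1 and -0.16 for replicate 2. When an anterior array was left out, the UGT8A probe detected only on the anterior arrays was not tested, so the median is then over 9 probes.

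**Figure D1:**
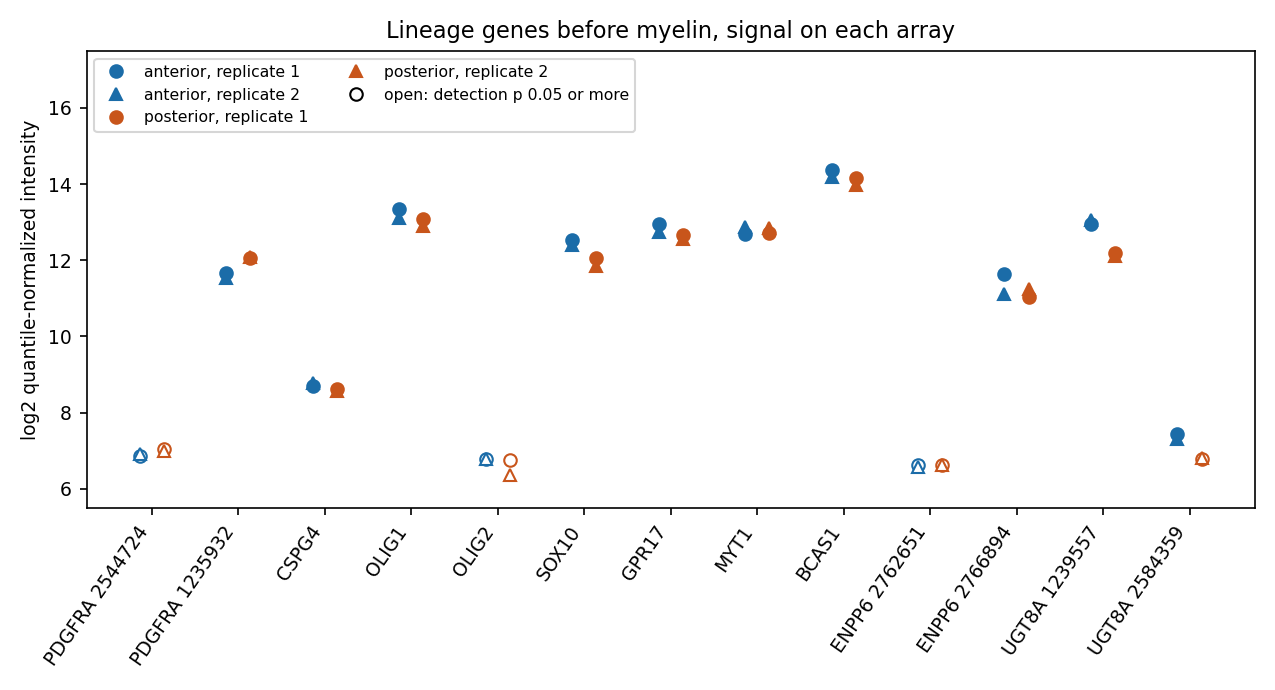
Signal of the 13 probes of the 10 lineage genes on each of the 4 arrays, in stage order from left to right. The y axis is the log2 quantile-normalized intensity, colours mark the lobe, circles replicate 1 and triangles replicate 2, numbers after a symbol are the probe number, and open symbols are values not detected on that array. PDGFRA lies higher and SOX10 and UGT8A lie lower on both posterior arrays, and the probe of OLIG2 is open on every array.

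Of the progenitor genes, PDGFRA passed the criterion and CSPG4 did not. PDGFRA, the receptor for the growth factor that keeps progenitors dividing, had a log2 signal of 11.67 and 11.53 on the anterior arrays and 12.05 and 12.09 on the posterior arrays (ILMN_1235932). Each posterior array was brighter than each anterior array, and the difference was wider than the spread within either lobe. The means were 11.60 ± 0.094 (SD, n = 2 arrays) and 12.07 ± 0.028, a difference of 0.47 with a standard error of 0.081, or 1.39-fold (95% interval 0.27 to 0.67). It passed the criterion of the study but not the adjustment (adjusted p = 0.16 by limma). Leaving out anterior replicate 1 brought the adjusted p to 0.0018, and leaving out a posterior array raised it to 0.99 or more, with the difference staying between 0.41 and 0.54 whichever array was left out. The whole array moved the same way, with 2538 of 21201 tested probes past the adjusted p when anterior replicate 1 was left out and 221 of 21185 when anterior replicate 2 was, in place of 23. Dropping a posterior array left 0 by limma, while 785 probes (replicate 1 dropped) and 825 (replicate 2 dropped) had an unadjusted p under 0.05. More progenitors and more PDGFRA RNA per cell cannot be told apart in RNA of whole lobes. The other probe of PDGFRA (ILMN_2544724) was not detected on any array, with detection p-values between 0.053 and 0.089, and gives no difference.

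Fibroblasts of the meninges also express PDGFRA, and their markers were higher in the posterior lobes. Of 9 tested probes for 6 such genes, 6 probes of 4 genes passed the criterion, all of them higher, beside 3.30% of all tested probes. Their median difference over the 9 probes was 0.49. Decorin (DCN), a matrix protein of fibroblasts, was higher by 0.93 on its brightest probe (ILMN_2747959, adjusted p = 0.024 by limma), and COL1A2, a collagen chain, was at -0.04. The summed intensity of the 9 probes was 15557 and 17523 on the anterior and 23210 and 26734 on the posterior arrays, and each of the 6 genes was detected. Most of this sum came from the probe of IGF2, which was at 0.47. The part of these cells in the difference of PDGFRA was not tested.

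CSPG4, which marks progenitors and also the pericytes of small vessels, had a log2 signal of 8.70 and 8.77 on the anterior and 8.63 and 8.57 on the posterior arrays (ILMN_2659224). The posterior arrays were slightly lower, with a difference of -0.14 (standard error 0.12, 95% interval -0.42 to 0.15, adjusted p = 0.72 by limma). None of the 6 pericyte genes passed the criterion, which 8.29% of all tested probes passed. Their differences ran from -0.56 for RGS5 to 0.13 for ANPEP, with a median of -0.01. Their summed intensity was 2241 and 2313 on the anterior and 2391 and 1935 on the posterior arrays.

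The transcription factors used along the whole lineage were measured by one probe each. SOX10, an HMG box factor that switches on many genes of differentiating oligodendrocytes, had a log2 signal of 12.53 and 12.41 on the anterior and 12.06 and 11.86 on the posterior arrays (ILMN_1228105). Both posterior arrays lay below both anterior arrays. The means were 12.47 ± 0.087 (SD, n = 2 arrays) and 11.96 ± 0.14, a difference of -0.51 (standard error 0.094, 1.42-fold, adjusted p = 0.19 by limma) that passed the criterion. The adjusted p of SOX10 was 0.012 without anterior replicate 1 and 0.018 without anterior replicate 2, and it stayed over 0.05 when a posterior array was left out, in settings that move all probes as given for PDGFRA, with differences between -0.61 and -0.41.

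OLIG1, a basic helix-loop-helix factor needed for the maturation of the lineage, had a log2 signal of 13.35 and 13.10 on the anterior and 13.08 and 12.89 on the posterior arrays (ILMN_2760105). The lobes did not overlap, but the lower anterior array lay only just above the higher posterior array. The difference was -0.24 (standard error 0.11, 95% interval -0.51 to 0.02, adjusted p = 0.53 by limma). OLIG2, the related factor that specifies the lineage, was not detected on any array (ILMN_2724709). Its intensity was 117.3 and 101.2 on the anterior and 108.1 and 84.1 on the posterior arrays, where detection p-values ran from 0.12 to 0.30, so its single probe gives no level and no difference, and this says nothing about the gene in the tissue.

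GPR17 and MYT1 stand for the step of commitment. GPR17, a receptor that is switched on as progenitors begin to differentiate and off again before myelin, had a log2 signal of 12.94 and 12.75 on the anterior and 12.67 and 12.55 on the posterior arrays (ILMN_3160970). It was lower on both posterior arrays, by -0.24 (standard error 0.091, 95% interval -0.46 to -0.01, adjusted p = 0.47 by limma). With an unadjusted p of 0.041 and a fold of 1.18 it lay just outside the criterion. Of the probes inside the criterion, PDGFRA was the one with the smallest fold, 1.39, and SOX10 the one with the largest unadjusted p, 0.0017.

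MYT1, a zinc finger factor of committed progenitors that newborn neurons use too, had a log2 signal of 12.70 and 12.86 on the anterior and 12.72 and 12.84 on the posterior arrays (ILMN_2798973). The arrays of the lobes overlapped. The difference was 0.00 (standard error 0.086, adjusted p = 0.99 by limma), and its 95% interval of -0.21 to 0.21 holds no change as large as that of PDGFRA, SOX10 or UGT8A. The sign of so small a difference turned with cyclic loess and without normalization. Of the neuronal markers, none of the 6 tested probes of 4 genes passed the criterion, beside 8.29% of all tested probes. Their median was 0.08, with DCX at -0.05 and 0.13 on its tested probes, and their summed intensity lay between 33629 and 35354 on all 4 arrays.

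**Figure D2:**
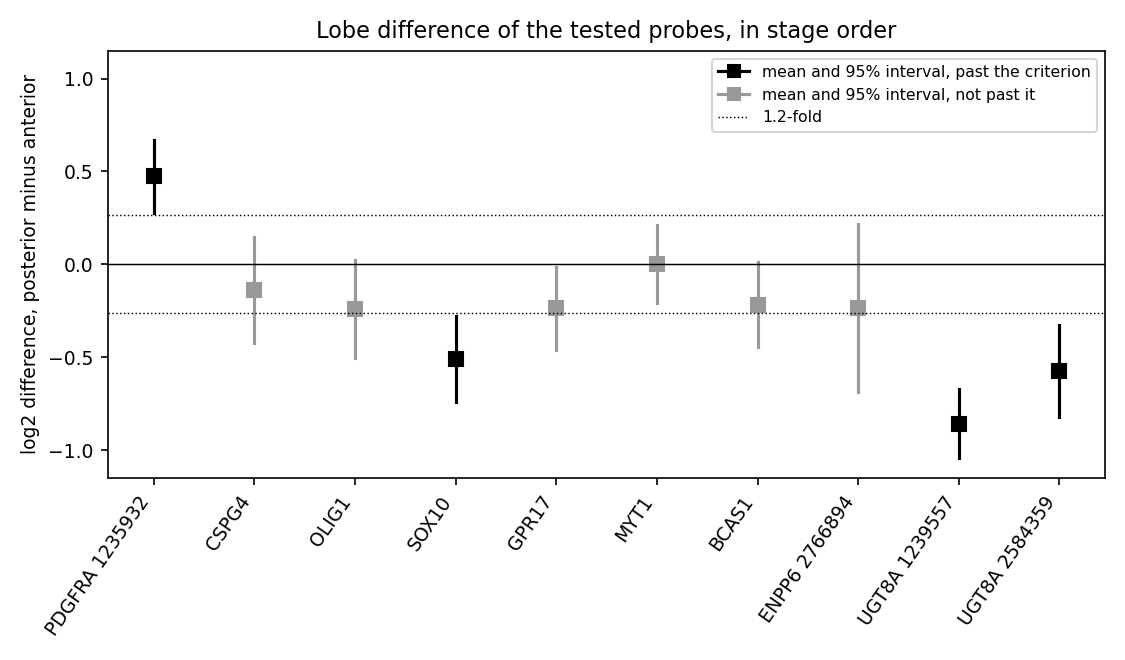
Difference between the lobes for the 10 tested probes in stage order. Squares are the log2 difference, posterior minus anterior, bars the 95% interval from limma over 2 arrays per lobe, black marks probes past the criterion of the study, and dotted lines mark 1.2-fold. PDGFRA stands at 0.47, MYT1 at 0.00 and UGT8A at -0.86 and -0.57, the last of these against a posterior signal that was not detected.

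Of the genes of newly formed oligodendrocytes, UGT8A passed the criterion, and BCAS1 and ENPP6 did not. BCAS1, a protein of cells that are just starting to form myelin, had a log2 signal of 14.38 and 14.19 on the anterior and 14.16 and 13.97 on the posterior arrays (ILMN_2662264). The difference was -0.22 (standard error 0.093, 95% interval -0.45 to 0.01, adjusted p = 0.52 by limma). The anterior arrays differed from each other by nearly as much as the lobes did.

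ENPP6, a choline phosphodiesterase used as a marker of new oligodendrocytes, had a log2 signal of 11.64 and 11.10 on the anterior and 11.03 and 11.24 on the posterior arrays (ILMN_2766894). Anterior replicate 1 stood above the other three arrays, among which the lobes overlapped. The difference was -0.23 (standard error 0.18, 95% interval -0.69 to 0.22, adjusted p = 0.70 by limma). It was 0.04 without anterior replicate 1 and -0.51 without anterior replicate 2, so neither its size nor its sign is settled here. The other probe of ENPP6 (ILMN_2762651) was not detected on any array.

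UGT8A, the enzyme that adds galactose to ceramide to make galactosylceramide, the main glycolipid of myelin, differed most. On its bright probe (ILMN_1239557) the intensity before normalization was 8474.6 and 7890.5 on the anterior and 4548.9 and 4465.4 on the posterior arrays, and the log2 signal was 12.94 and 13.06 against 12.19 and 12.10. Both posterior arrays lay far below both anterior arrays, and the arrays within a lobe were close. The means were 13.00 ± 0.087 (SD, n = 2 arrays) and 12.14 ± 0.060, a difference of -0.86 (standard error 0.076, 95% interval -1.05 to -0.67), or 1.81-fold lower (adjusted p = 0.035 by limma). UGT8A fell under all 4 other ways of normalizing, with the adjusted p still under 0.05, but at the same difference the adjusted p was 0.094 by limma without the intensity trend and 0.55 by the unmoderated test of the study's methods. Leaving out posterior replicate 1 gave a difference of -0.90 and an adjusted p of 0.38 by limma, and leaving out posterior replicate 2 gave -0.81 and 0.69.

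The dim probe of UGT8A (ILMN_2584359) was detected on both anterior arrays, at an intensity of 189.8 and 142, and on neither posterior array, at 110.9 and 114.4. Its signal was at least 1.25-fold higher in the anterior lobes, the anterior mean of 7.37 being set against 7.05, the mean of the lowest detected signal on each posterior array (adjusted p = 0.17 by limma, with means of 7.37 and 6.80). It points the same way as the bright probe, and as a probe of the same gene it is not a separate result.

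The sequences just upstream of PDGFRA and UGT8A are shown because these genes stood at opposite ends of the differences. They come from a set of RefSeq promoters on the mouse build GRCm38.p6. In the set used, 6 of the 10 genes had an entry, PDGFRA, CSPG4, OLIG2, MYT1, ENPP6 and UGT8A. Each is the 250 bases before the transcript start, chr5:75152001-75152250 on the plus strand for PDGFRA and chr3:125938653-125938902 on the minus strand for UGT8A, and capitals mark the motif CANNTG, the E-box that basic helix-loop-helix factors such as the Olig proteins can bind.
PDGFRA: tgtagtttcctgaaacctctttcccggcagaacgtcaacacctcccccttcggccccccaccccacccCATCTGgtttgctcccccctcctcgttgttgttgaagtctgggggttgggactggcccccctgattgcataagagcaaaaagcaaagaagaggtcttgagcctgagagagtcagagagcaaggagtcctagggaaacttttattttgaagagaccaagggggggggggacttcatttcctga
UGT8A: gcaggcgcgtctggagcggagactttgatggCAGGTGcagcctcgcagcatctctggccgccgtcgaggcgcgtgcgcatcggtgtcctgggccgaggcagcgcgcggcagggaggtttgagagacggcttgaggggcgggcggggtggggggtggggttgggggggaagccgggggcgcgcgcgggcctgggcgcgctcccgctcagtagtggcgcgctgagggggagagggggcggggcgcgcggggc
Each sequence holds 1 E-box, read on both strands, and at least 1 is found in 66.2% of 32851 RefSeq promoter windows of this length. The PDGFRA window has 54.4% G and C and the UGT8A window 76.8%, against a median of 52.4% over all windows. Neither holds ACAAAG or ACAATG on either strand, core letters of some sites for SOX factors that 16.5% and 10.7% of all windows hold. Other forms of SOX sites were not searched for, so the windows may still hold one. A match is a description of letters, and binding was not measured.

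Relative to PDGFRA on the same array, UGT8A and SOX10 were lower in the posterior lobes. The log2 ratio of UGT8A to PDGFRA was 1.27 and 1.53 on the anterior arrays and 0.13 and 0.01 on the posterior arrays, a difference of -1.33. That of SOX10 to PDGFRA was 0.86 and 0.87 against 0.00 and -0.23, a difference of -0.98, and that of UGT8A to MYT1 differed by -0.86. Permuting the lobes over the 4 arrays in an exact two-sided test gave p = 0.33 for each of these 3 ratios, before and after adjustment over the 3. That is the smallest p it allows, so the test could not decide, and the ratios restate the differences of the single probes.

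Probes of further genes of the lineage before myelin passed the criterion about as often as all tested probes did. A list of 33 such genes was drawn up, 32 had a probe and 29 a tested probe, 49 probes in all. By the criterion 2 probes were higher and 2 lower (8.29% of all tested probes pass it), none passed the adjusted p by limma, and the median difference was -0.10. With a detection p under 0.01 required on 2 or more arrays, 1 probe was higher and 1 lower. Of the 11 progenitor genes, TMEM100, a small membrane protein that endothelial cells use as well, was at -0.33 (adjusted p = 0.34 by limma). MATN4, a matrix protein, was at -0.37 on the probe that passed the criterion, a dim probe not detected on posterior replicate 2, and at -0.20 on its brighter probe. PTPRZ1, a receptor phosphatase, was at -0.21 and -0.17, short of 1.2-fold.

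Of the lineage factors, NKX2-2, a homeobox factor of committed progenitors, was at 0.13 and 0.19, and ZFP488, a partner of OLIG2, at -0.27. SOX8 was at 0.80 on a probe whose posterior arrays differed widely (8.44 and 7.18) and at -0.07 on its other probe. ZEB2 was at 0.55 and 0.19 on its tested probes. None of these passed the criterion. The single probe of MYRF, the factor that starts the myelin program, was not detected on any array, which says nothing about the gene in the tissue. Of the genes of newly formed cells, 9 of 10 tested probes, from 7 genes, were below 0, and none passed the criterion as lower. The median over all tested probes was 0.00. Just short of the criterion were TNS3 at -0.26, SIRT2 at -0.25 and ITPR2 at -0.27. FYN, a kinase of many cell types, was at 0.33 on a dim probe that passed the criterion and at -0.09 on another. These counts moved with the arrays used, from 0 to 8 probes higher and from 0 to 6 lower when one array was left out. The highest count of probes higher, 8, came without anterior replicate 1 and the highest count lower, 6, without anterior replicate 2. Over all tested probes these settings gave 2216 higher of 21201 and 1075 lower of 21185.

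**Figure D3:**
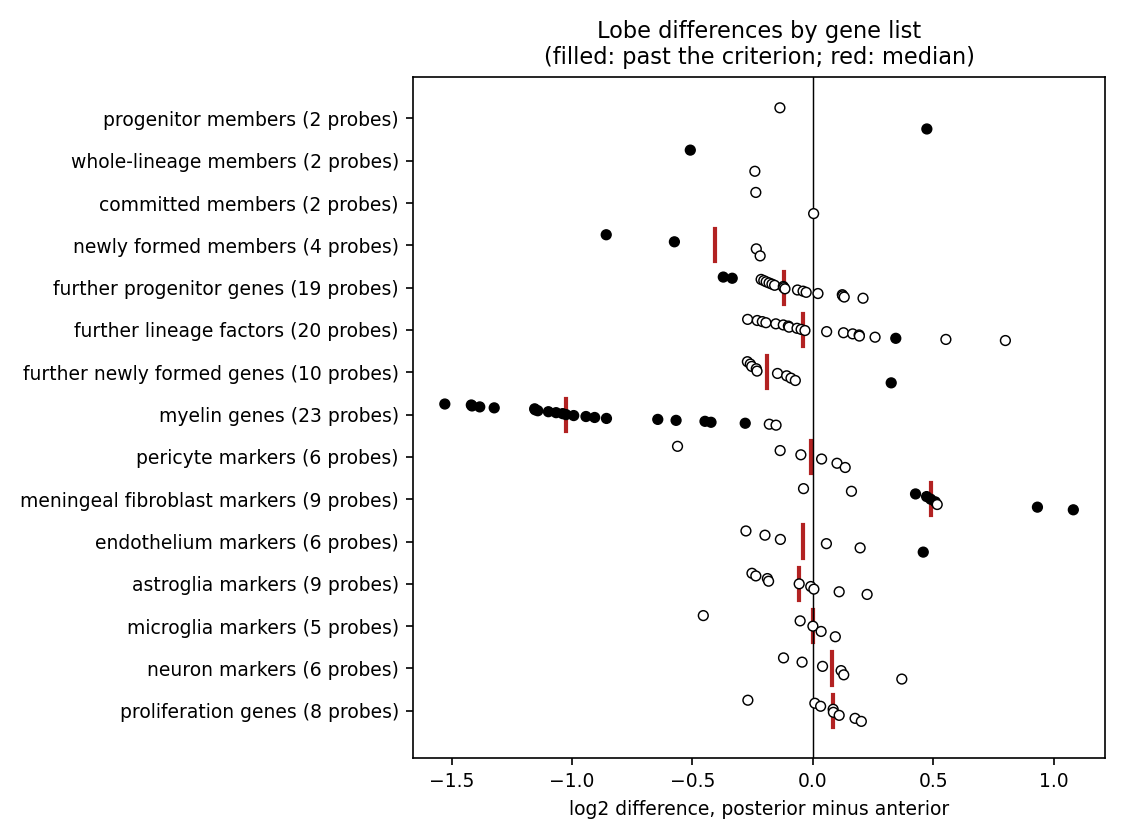
Difference between the lobes for every tested probe of the 10 lineage genes by stage, of further lineage genes, of myelin genes and of markers of other cells. The x axis is the log2 difference, posterior minus anterior, each point is a probe, filled points passed the criterion of the study, and red bars are medians of lists with more than 2 probes. The myelin genes have a median of -1.02 and the meningeal fibroblast markers one of 0.49, and the further lineage genes together one of -0.10.

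Most probes of the myelin genes were lower in the posterior lobes. Of 23 tested probes for 11 myelin genes, 21 passed the criterion, all lower, with a median of -1.02. Among the 10 probes of the genes before myelin 3 passed as lower, with a median of -0.24. Over all tested probes 5.00% passed as lower. MBP, a main protein of compact myelin with a log2 signal of 14.76 and 14.83 on the anterior and 14.34 and 14.35 on the posterior arrays (ILMN_2737200), was at -0.45 on that probe and between -1.32 and -0.18 on its other 4 tested probes, which thus disagree in size. CLDN11, a tight junction protein of the sheath, was at -0.42. MAL, a raft protein of mature sheaths, was at -1.53 and -1.16 on its tested probes, and the surface protein MOG was at -1.42 on both of its probes. The myelin probes ranged from -1.53 to -0.15, a range that also holds OLIG1, SOX10, GPR17, BCAS1, ENPP6 and UGT8A. The difference between the lists was not tested.

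The counts for markers of the remaining cell types stand beside the 8.29% of all tested probes that passed the criterion. None of the 9 tested probes of astroglia, 5 of microglia and 8 of proliferating cells passed the criterion, with medians of -0.06, 0.00 and 0.08, and 1 of 6 endothelial probes did, CDH5 at 0.46. The summed intensity of the proliferation genes was 26932 and 26581 on the anterior and 28117 and 28189 on the posterior arrays, and that of the endothelial genes was 8533 and 9920 against 9536 and 9115. The part of these cells in the differences of the lineage genes was not tested.

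**Figure D4:**
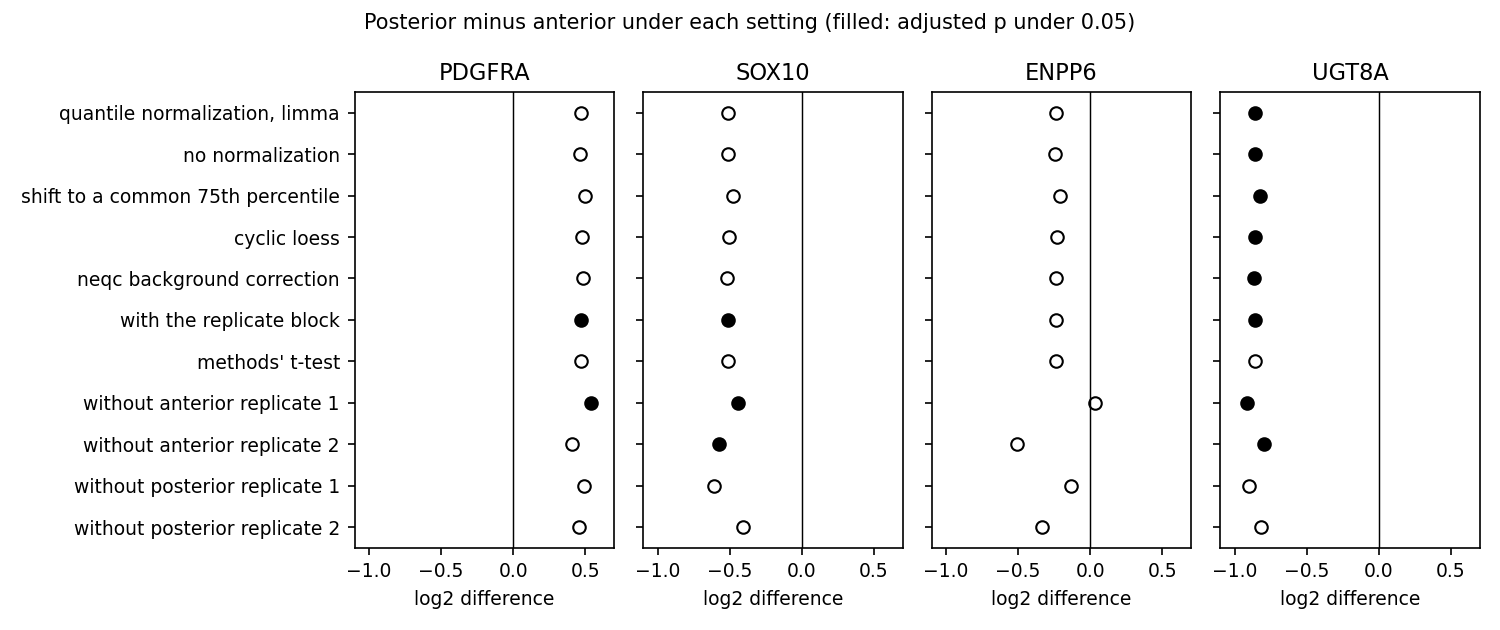
Difference between the lobes for PDGFRA, SOX10, ENPP6 and the bright probe of UGT8A under quantile normalization with limma and under 10 other settings. The x axes are the log2 difference, posterior minus anterior, and filled points had an adjusted p under 0.05. PDGFRA stays above 0 and SOX10 and UGT8A stay below 0 in every setting shown, while ENPP6 crosses 0 without anterior replicate 1.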

How the data were processed

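RNA of 2 anterior and 2 posterior cerebellar lobe samples was hybridized as biotinylated cRNA, 1 array per sample. The authors deposited mean bead intensity per probe from GenomeStudio, neither normalized nor background subtracted, with the SD and number of beads, and a detection score, a fraction equal to 1 minus the detection p-value. Columns were assigned by the sample numbers that the labels give, and 16 others were not used. The study's threshold of 1 and log2 transformation are not applied in the deposited intensities, so they were applied here after quantile normalization.

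Probes detected (p under 0.05) on 2 or more arrays were tested with limma 3.58.1 in R 4.3.3 (lmFit, eBayes with an intensity trend), without a block, and adjusted by Benjamini-Hochberg. The fit was tested on simulated data. Array number and bead counts limit the precision. All probes of the 10 genes are named, of further lineage genes those past the criterion, of other lists the brightest or most different, and a few more were named after their values were seen. One gene of the lists is counted but not reported here. The genes and lists were chosen with earlier results of these data known. Alternatives covered normalization, background correction (neqc, offset 16), filters, tests, the replicate block and left-out arrays. Promoters came from RefSeq.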

Additional observations from a re-analysis of the deposited data

How the results depend on the processing

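Of 136 values of single probes under the alternatives, 121 kept their sign and their side of an adjusted p of 0.05. Only the differences of ENPP6 and MYT1 changed sign. Leaving out an array, ENPP6 lay between -0.507 and 0.036 and MYT1 between -0.082 and 0.086, and MYT1 was at -0.008 with cyclic loess and without normalization. The number of the 10 genes' probes past the adjusted p, 1 with all arrays, was 0 when the trend was left out of eBayes and also with the methods' t-test (where 4 had an unadjusted p under 0.05 in both), and from 0 to 3 leaving out an array, 0 without either posterior array (where 5 had an unadjusted p under 0.05 by limma without replicate 1 and 4 without replicate 2). By construction the spread then comes from one lobe, and the single array left in the other is taken to vary equally. The number past the study criterion, 4, was 1 at 1.5-fold and from 3 to 7 leaving out an array. The median difference was -0.21 with a common 75th percentile and between -0.34 and -0.13 leaving out an array. The causes were not tested. The alternatives for the lists of further lineage and myelin genes were added after seeing the data.

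Adding the replicate block brought 4 probes past the adjusted p, those of PDGFRA (0.019), SOX10 (0.0079) and both of UGT8A, and the median stayed at -0.24. Over all tested probes the block gave 588 past the adjusted p in place of 23. Replicate 1 minus replicate 2 in one lobe had a correlation of r = 0.46 with the same difference in the other, over 21726 probes, but the labels do not say that a number marks a shared animal. Signals near background limit OLIG2, the dim probes of PDGFRA and ENPP6, and the size of the change on the dim probe of UGT8A. They also limit the probes of MATN4 and FYN that passed the criterion.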
